A study of Mus musculus with 6 samples.

Results

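Small GTPases of the RhoA, Rac and Cdc42 family control the actin cytoskeleton, adhesion, migration and division, and act as switches that are on when they hold GTP and off when they hold GDP. RhoGAPs speed up GTP hydrolysis and turn the switch off, RhoGEFs exchange GDP for GTP and turn it on, and RhoGDIs, the GDP-dissociation inhibitors of the family, hold the inactive form in the cytosol. In blood-forming cells these proteins are known for their parts in homing, retention in the marrow and cell division, and some, such as Vav1, Dock2 and Arhgef6, are made mainly in blood cells. p190-B, encoded by Arhgap5, is itself a RhoGAP that acts mainly on RhoA. The genes examined here are the RhoGAPs, the RhoGEFs of the Dbl and DOCK types and the RhoGDIs on a mouse array. They were taken by gene name: all names of the Arhgap, Arhgef and Dock series, with Grlf1, the 3 RhoGDIs, the Vav and Tiam genes, Ect2, Racgap1, the Srgap and Chn genes, Dlc1 and Net1. The rule gave 116 probes of 80 genes among 39429 on the array: 59 probes of 39 RhoGAP genes, 33 of 27 Dbl-type exchange factors, 17 of 11 DOCK exchange factors and 7 of the 3 RhoGDIs.

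The arrays measured RNA of LSK-SLAM cells, a marrow fraction enriched for hematopoietic stem cells (HSC), which were sorted as Lin- c-Kit+ Sca+ CD150+ CD48-. They came from secondary recipients (2T), mice given marrow of primary recipients. The grafts started from fetal liver cells of WT or p190-B-/- embryos of a C57BL/6J-backcrossed line. They were mixed with WT competitor marrow and given to lethally irradiated congenic mice. In both groups only donor blood cells, not the competitor cells or the host's marrow stroma, carried the genotype. The sort as given here and the paper's array methods name no donor marker, so WT competitor cells may be among the sorted cells of either group. There were 3 samples of 2T-WT and 3 of 2T-p190-B-/-, hybridised in a single colour to 1 array each after cDNA amplification. The study describes independent mice and sorts, but whether each array held 1 mouse or a pool is not given in the sources used here, nor are the ages of the mice.

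The values are the log2 of the background-corrected signal less the log2 of the 75th percentile of that signal on the same array, so that 0 is the 75th percentile. They compare arrays for 1 probe; the signals of different probes also depend on the probe and do not rank transcripts. A probe counts as above background where the scanner software marked its spot as well above background. Between 48.4% and 73.1% of all probes were above background on an array, and 44.0% to 67.2% of the GTPase regulator probes. The signal at the 75th percentile ran from 53.9 to 227 for 2T-WT and from 252 to 385 for 2T-p190-B-/-. The arrays lay on 3 slides, of which only 1 held both groups (2T-WT replicates 2 and 3 with 2T-p190-B-/- replicates 1 and 2). Of 10 measured markers of LSK-SLAM cells and HSC, 6 were above background on all 6 arrays, but Slamf1, which encodes the sort marker CD150, and Procr were above it on none. Their summed log2 level was 2.77 to 4.87 in 2T-WT and 2.93 to 4.84 in 2T-p190-B-/-. Of 5 T lymphocyte markers, 4 were above background on all 6 arrays, with a summed level of 5.33 to 7.12 in 2T-WT and 4.92 to 5.62 in 2T-p190-B-/-. The Cd4 probe gave 73.3% to 96.1% of that sum, and the other 4 markers together stood at 2.44 to 3.73 in 2T-WT and 2.45 to 3.13 in 2T-p190-B-/-. Of 3 macrophage markers, 2 were, with a summed level of 5.78 to 7.25 in 2T-WT and 4.87 to 5.47 in 2T-p190-B-/-, of which the Csf1r probe made up 96.2% to 99.7%. Without it the sum was -1.15 to -0.94 in 2T-WT and -1.49 to 0.57 in 2T-p190-B-/-. Whether these bright Cd4 and Csf1r probes report their genes was not tested. The summed level of the 5 B lymphocyte markers was 1.98 to 9.49 in 2T-WT and 1.93 to 2.53 in 2T-p190-B-/-, and Cd79a stood at 9.47 on 2T-WT replicate 3 alone. Among red cell markers Hba-a1 and Epor were above background on all 6 arrays and Hbb-b1 on none. Among neutrophil markers Elane was above it on all 6, Camp, Mpo and Ngp on 5, and S100a9 on none. The part of other blood cells in the values below was not tested.

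GTPase regulators were detected about as often as other genes on these arrays. Of the 116 probes, 37 (31.9%) were above background on all 6 arrays, 32 on 3 to 5, 23 on 1 or 2 and 24 (20.7%) on none, against 34.9% on all 6 and 16.8% on none for all probes. By gene, 32 of the 80 had a probe above background on all 6 arrays. For 8 genes no probe was above background on any array. These were the DOCK genes Dock1, Dock5 and Dock8, the Dbl-type genes Arhgef11 and Vav3, and the RhoGAPs Arhgap19, Arhgap24 and Dlc1. Dock8 and Vav3 are exchange factors known from lymphocytes, Arhgef11 couples G protein signalling to RhoA, and Dlc1 was named as a gene deleted in liver cancer. An array signal at background is a bound and does not show that a transcript was absent.

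**Figure D1:**
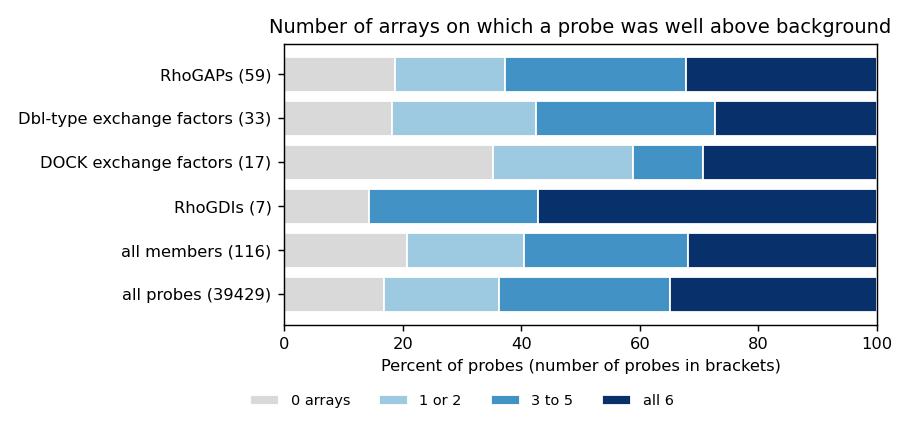
Bars give the percent of probes (x axis) of each family that were well above background on 0, 1 or 2, 3 to 5 or all 6 arrays; the number of probes is in brackets. The DOCK exchange factors had the largest grey part, 35.3% of 17 probes above background on no array, and the RhoGDIs the largest dark part, 57.1% of 7 probes above background on all 6.

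The deleted gene could not be followed with this array. Arhgap5 had 1 probe, at chr12:53668087-53668146 on the plus strand (build mm9, as are all coordinates here). Its value was -4.74, -5.55 and -4.44 in 2T-WT and -5.46, -2.71 and -6.01 in 2T-p190-B-/-. It was above background on 2T-p190-B-/- replicate 2 only, so it neither showed the transcript in WT cells nor its loss, and it was not tested. The labels' genotypes were therefore not checked by it, and whether the probe lies in the deleted part of the gene is not given in the sources used here. Grlf1, which RefSeq now lists as Arhgap35, encodes p190-A, the closest relative of p190-B. Its probe, at chr7:17080402-17080461 on the minus strand, read -4.86, -3.15 and -0.62 in 2T-WT and -5.09, -5.15 and -3.79 in 2T-p190-B-/-. Of the 2T-WT arrays 2 passed background there, and no 2T-p190-B-/- array did. Set against the lowest signal that counted as above background, its 2T-WT mean gave a bound of 1.92-fold lower in 2T-p190-B-/-. That mean includes 2T-WT replicate 1, which was at background, so the bound is not a strict limit. That bound rested on 2T-WT replicate 3: without it none could be given, and it was 3.82-fold without 2T-WT replicate 1. The probe passed background on too few arrays to be tested. The first 30 of the 60 bases of each probe are shown because both readings rest on these single oligonucleotides.
Arhgap5 probe: atcgagagtttctgtctaccactaaaatcc
Grlf1 probe: tgttccctgtgtacattttaagcaaaggaa

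Across the family no probe passed the test, and the differences were spread as in all probes. Limma was fitted over the 25127 probes of the array that were above background on at least 3 of 6 arrays with at least 2 values in each group. They included 69 GTPase regulator probes of 54 genes: 37 of RhoGAPs, 19 of Dbl-type and 7 of DOCK exchange factors and 6 of RhoGDIs. At an adjusted limma p under 0.05 there were 0 GTPase regulator probes, and 0 (0%) of all probes; the smallest adjusted p of a GTPase regulator was 0.638. At an unadjusted limma p under 0.05 there were 7 of the 69, or 10.1%, with 6.58% of all probes as background. The methods' t-test, run on the same values, also gave 0 after adjustment. Of the 7, 4 had the higher mean in 2T-p190-B-/- (3.19% of all probes) and 3 the lower (3.39% of all probes). For 10 of the 69 probes, or 14.5%, the ranges of the groups were apart, against 16.3% of all probes. In 3 of the 10 all 2T-p190-B-/- arrays were higher (4.53% of all probes) and in 7 all were lower (11.7%). In such RNA from sorted cells, fewer cells of a type and less RNA per cell cannot be told apart.

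The median difference of 2T-p190-B-/- minus 2T-WT over the 69 probes was -0.31 on the log2 scale, with -0.33 over all probes tested. Without 2T-WT replicate 3 it was -0.16, with -0.24 over all probes. Without 2T-p190-B-/- replicate 2 it was -0.60, with -0.32 over all probes. A difference below 0 was found for 47 of the 69 probes, with 60.7% of all probes as background, and 34 of the 69 were under the all-probe median. With quantile normalization the median of all probes was -0.10 and that of the GTPase regulators -0.09, so directions below are also read against that shift. At least 2-fold differences were seen for 21 probes lower (27.8% of all probes) and 12 higher (15.9% of all probes). The median SD within a group was 1.01 in 2T-WT and 0.79 in 2T-p190-B-/-, beside a median absolute difference of 0.98 with a median SE of 0.88. The typical difference was thus of the size of the spread between arrays. The median difference of the probes above background on no array was -1.0 for the 24 GTPase regulators and -0.94 for all such probes. This is how the array floor differs between the groups on this scale. Those probes entered no test, but 32 of the 69 tested probes were above background on only 3 to 5 arrays. Readings at background therefore also entered tests, and their part in the differences was not tested.

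**Figure D2:**
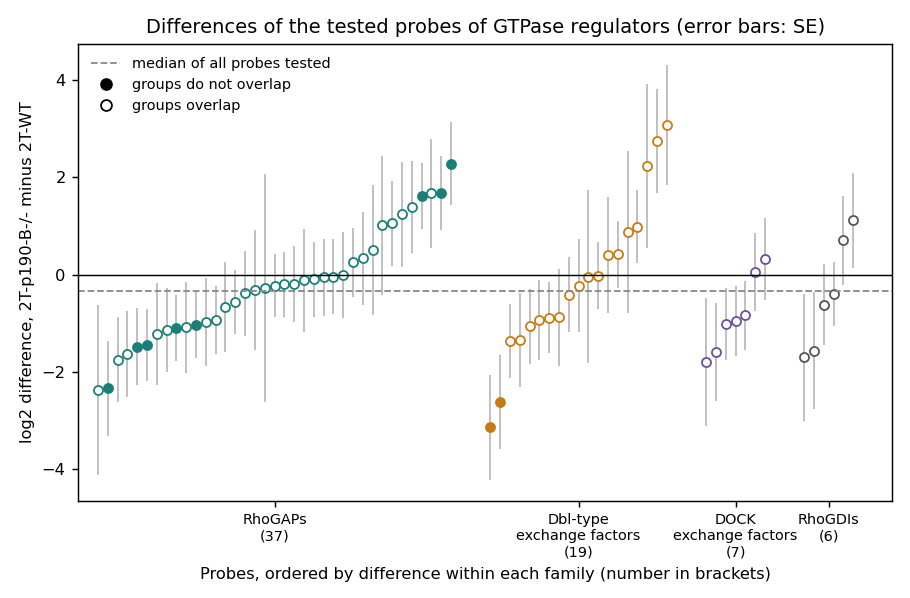
Each point is a tested probe, ordered by its log2 difference (y axis, 2T-p190-B-/- minus 2T-WT, bars SE) within its family, and filled points are probes whose groups did not overlap. The 10 filled points lie on both sides of 0, and the dashed line marks the median of all probes tested, -0.33.

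RhoGAPs held both the clearest higher and several lower values. Of the 37 RhoGAP probes tested, 3 were higher and 5 lower without overlap of the groups, beside 4.53% and 11.7% of all probes. Arhgap22, a Rac-directed GAP known from endothelial and tumour cells, read -0.52, -0.65 and -1.95 in 2T-WT and 1.43, -0.05 and 2.35 in 2T-p190-B-/-, above background on all 6 arrays. All 2T-p190-B-/- arrays were above all 2T-WT arrays, with a difference of 2.28 ± 0.86 (SE) on the log2 scale, or 4.87-fold (limma unadjusted p = 0.0285, adjusted p = 0.638), and 1.56 with normexp background correction, which fits the background anew. Srgap3, one of the Slit-Robo GAPs that shape membrane protrusions in neurons, read -1.14, -1.48 and -1.48 in 2T-WT and 0.20, 0.81 and -0.25 in 2T-p190-B-/- at its best probe. The groups did not overlap and differed by 1.62 ± 0.67 (limma adjusted p = 0.638), but by 0.72 with normexp. Arhgap27 read -1.22, -1.85 and -1.47 in 2T-WT and 0.15, -0.81 and 1.16 in 2T-p190-B-/-, a difference of 1.68 ± 0.76 without overlap (limma adjusted p = 0.638), which was 0.77 with normexp. Chn2, which encodes the Rac-directed GAP β2-chimaerin, was above background on 3 2T-p190-B-/- arrays and no 2T-WT array at 1 of its probes. It read -2.86, -6.10 and -4.17 in 2T-WT and -4.50, -2.19 and -1.40 in 2T-p190-B-/-. The ranges overlapped, with a measured difference of 1.68 ± 1.12 (limma adjusted p = 0.640) that was -0.61 with normexp. The bound explained above was 1.16-fold higher, and there was none without 2T-p190-B-/- replicate 2, 2T-p190-B-/- replicate 3 or 2T-WT replicate 2.

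Among the RhoGAPs with lower means, Arhgap8 read 2.98, 1.70 and 4.99 in 2T-WT and -0.05, 1.34 and 1.38 in 2T-p190-B-/-. All 2T-p190-B-/- arrays were below all 2T-WT arrays, with a difference of -2.34 ± 0.98 (limma unadjusted p = 0.0438, adjusted p = 0.638) and of -1.39 with normexp. Arhgap15, a Rac-directed GAP of blood cells, read -2.51, -2.98 and -1.29 in 2T-WT and -3.62, -4.21 and -3.28 in 2T-p190-B-/-, also without overlap, a difference of -1.44 ± 0.75 (limma adjusted p = 0.638). It was above background on 2 arrays of each group, and its other probe on none. Arhgap12 read -0.99, 0.09 and 1.76 in 2T-WT and -2.0, -1.58 and -0.80 in 2T-p190-B-/-. Its highest 2T-p190-B-/- value was above the lowest 2T-WT value, and the difference was -1.75 ± 0.88 (limma adjusted p = 0.638). Srgap2, Arhgap17 and Arhgap26 also had lower means, and their probes are described with their sequences below. For the remaining RhoGAPs the groups overlapped at every tested probe except 1 of Racgap1. Arhgap1, a widely expressed Cdc42-directed GAP, was among the steadiest: 5.34, 5.61 and 5.12 in 2T-WT and 5.28, 4.73 and 5.38 in 2T-p190-B-/-.

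**Figure D3:**
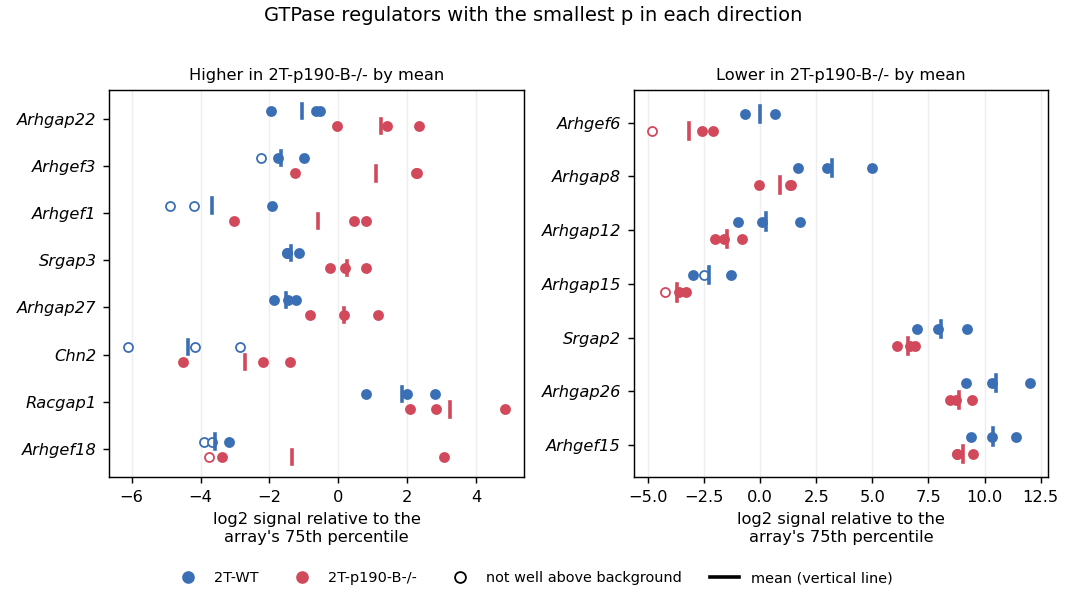
Each circle is 1 array, on the x axis as log2 signal relative to the array's 75th percentile, for the genes with the smallest p in each direction; open circles were not well above background and vertical lines are group means. The groups separate for Arhgap22, Srgap3 and Arhgap27 on the left and for Arhgef6, Arhgap8, Arhgap15 and Srgap2 on the right, while the mean of Arhgef18 rests on 1 array at 3.08.

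The exchange factors with the largest differences above 0 were Arhgef1, Arhgef3 and Arhgef18, which all act on RhoA. Arhgef3, known as XPLN and active on RhoA and RhoB, read -1.76, -0.99 and -2.23 in 2T-WT and 2.30, 2.25 and -1.27 in 2T-p190-B-/-. Replicates 1 and 2 of 2T-p190-B-/- were high, while replicate 3 lay within the 2T-WT range; the difference was 2.75 ± 1.07 (limma unadjusted p = 0.0327, adjusted p = 0.638). On the slide that held both groups it was 3.89, and with normexp 1.56. Arhgef1, the leukocyte exchange factor also called Lsc, showed the same pair of arrays high at 1 probe: -4.19, -4.90 and -1.92 in 2T-WT and 0.81, 0.45 and -3.02 in 2T-p190-B-/-. The groups overlapped and the difference was 3.08 ± 1.24 (limma unadjusted p = 0.0371, adjusted p = 0.638), which fell to 0.71 with normexp (limma unadjusted p = 0.390). Its other probe, above background on all 6 arrays, gave 0.42 ± 0.69. Arhgef18 read -3.91, -3.16 and -3.66 in 2T-WT and -3.37, -3.74 and 3.08 in 2T-p190-B-/-. Its difference of 2.23 came from 2T-p190-B-/- replicate 3, was 0.02 without that array, and was -0.14 on the slide with both groups or with the slide as a block. Of the 10 RhoA-directed exchange factors on the array, 5 had a tested probe. The difference was above 0 for 4 of them and below 0 for 1, while 60.7% of all probes were below 0. Of the 5, 0 had groups without overlap, beside 16.3% of all probes. The median was 0.88. It was 0.04 with normexp background correction, 0.31 with the slide as a block and -0.23 over the 2 genes above background on all 6 arrays. The 0.88 is the value of Net1, in which only 2T-p190-B-/- replicate 2 was high. Net1 read -4.51, -3.09 and -1.82 in 2T-WT and -4.32, 1.82 and -4.29 in 2T-p190-B-/-. Its other probe was at background on all 6 arrays. These counts depend on which genes were listed. Some tested Dbl-type factors were listed neither here nor among the Rac- or Cdc42-directed factors below. Of these, Arhgef10l gave a difference of 0.40. Arhgef15, Arhgef33, Arhgef19, Arhgef38, Arhgef37 and Arhgef5 gave -1.36, -1.06, -0.88, -0.41, -0.23 and -0.04.

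Exchange factors that act on Rac or Cdc42 had lower means in 2T-p190-B-/- more often than not. Of the 20 such genes on the array, 11 had a tested probe. The difference was below 0 for 10 of them, against 60.7% of all probes, and below the median of all probes for 9. The median difference of the 11 was -1.01 against -0.33 over all probes. With normexp background correction it was -0.51, with 6 of 11 below the median of all probes. Dock3 was counted by its brightest probe at -0.95, while its other tested probes gave 0.06 and 0.33. Arhgef7 was counted at -0.93 by a probe that holds a repeat, described below. Arhgef6, or α-PIX, which acts on Rac and Cdc42 and binds PAK kinases, read 0.67 in 2T-WT replicate 1, -0.69 in 2T-WT replicate 3, and -2.57, -4.79 and -2.09 in 2T-p190-B-/-. The spot on 2T-WT replicate 2 was an outlier and was left out. All 3 2T-p190-B-/- values were lower, with a difference of -3.14 ± 1.08, the smallest p of the family (limma unadjusted p = 0.0223, adjusted p = 0.638), and -1.69 with normexp. Tiam1, a Rac-directed factor, gave -1.34 ± 0.98 with overlapping groups.

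Of the 7 DOCK probes tested, 5 had differences below 0, and the groups overlapped for all 7. Dock2, the Rac activator of migrating blood cells, read 0.25, -0.50 and 1.02 in 2T-WT and -0.74, -0.76 and -0.25 in 2T-p190-B-/-, a difference of -0.83 ± 0.71 (limma adjusted p = 0.696), or -0.51 with normexp. Its other probe was at background on all 6 arrays. Dock10, which acts on Cdc42 and Rac, was above background at 1 probe on 2 2T-WT arrays and on no 2T-p190-B-/- array. It read 1.05, -3.36 and -2.69 in 2T-WT and -6.60, -4.02 and -4.39 in 2T-p190-B-/-, and it was not tested. By the bound it was 4.44-fold lower, with 2T-WT replicate 3, at background, included in the mean. Without 2T-WT replicate 1, its 1 high array, the bound was 1.73-fold, and without 2T-WT replicate 2 it was 7.97-fold. Its other probe was above background only on 2T-p190-B-/- replicate 1. The Vav genes, which link antigen and integrin receptors to Rac, gave no common pattern. Vav1 read -1.90, -0.90 and -2.82 in 2T-WT and -0.89, -0.56 and -1.21 in 2T-p190-B-/-, a difference of 0.99 ± 0.75 with overlap (limma adjusted p = 0.671), and -0.12 with normexp background correction. Vav2 differed by -0.02 ± 0.69.

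Over the 11 regulators listed as restricted to blood cells, 9 were tested, with a median difference of -0.66 and 6 below 0. Without 2T-WT replicate 3 the median was -0.15, with 4 of 9 under the all-probe median. The groups of 2 of the 9, Arhgef6 and Arhgap15, did not overlap, both lower in 2T-p190-B-/-, as were 11.7% of all probes. Of the 4 cytokinesis regulators, Ect2, the exchange factor that activates RhoA at the cleavage furrow, was above background on 2T-p190-B-/- replicates 1 and 3 only. It read -4.51, -5.98 and -4.44 in 2T-WT and -3.67, -5.10 and -1.08 in 2T-p190-B-/-, and was not tested. Racgap1, of the centralspindlin complex, had 2 tested probes of opposite sign. One read 2.80, 1.99 and 0.80 in 2T-WT and 2.84, 4.85 and 2.08 in 2T-p190-B-/-, a difference of 1.39 ± 0.95 (limma adjusted p = 0.644). The other, whose target overlaps the first by 10 bases, read -1.89, -2.13 and -1.31 in 2T-WT and -2.76, -3.30 and -2.35 in 2T-p190-B-/-, without overlap of the groups, a difference of -1.03 ± 0.68 (limma adjusted p = 0.640).

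The RhoGDIs were the most widely detected family, with a probe of each gene above background on all 6 arrays, and no probe of theirs separated the groups. Arhgdib, the inhibitor of blood cells (LyGDI), read 2.68, 2.82 and 3.50 in 2T-WT and 2.32, 2.88 and 2.60 in 2T-p190-B-/- at its brighter probe. The difference was -0.40 ± 0.66 (limma adjusted p = 0.852) and 0.40 with normexp background correction. Its other probe read 0.49, -3.83 and -4.48 in 2T-WT and -3.58, -5.15 and -4.17 in 2T-p190-B-/-, a difference of -1.70 ± 1.30 in which 2T-WT replicate 1 stood high and the other 5 arrays overlapped. Arhgdia, the widely expressed RhoGDI, had 3 tested probes, with differences of 1.12 ± 0.98, 0.71 ± 0.91 and -1.56 ± 1.21. The brightest read 1.38, 3.84 and 1.80 in 2T-WT and 4.12, 1.97 and 4.29 in 2T-p190-B-/-. Arhgdig read -1.67, -0.63 and 0.65 in 2T-WT and -0.42, -1.77 and -1.32 in 2T-p190-B-/- (-0.62 ± 0.83), and its other probe was at background on all arrays.

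Different probes of the same gene often gave different answers. Of 31 GTPase regulators with several probes, 12 had at least 2 tested, which makes 18 pairs that share a gene and so are not independent. The signs were the same in 10 pairs and opposite in 8. The gap between the differences of a pair was 1.22 at the median, over 1 in 12 of the 18 pairs, and 4.04 at most. That largest gap was in Arhgap27, whose second probe read 1.06, 6.26 and 1.66 in 2T-WT and -0.95 and 2.20 in 2T-p190-B-/- replicates 2 and 3, with replicate 1 an outlier spot (-2.36 ± 1.74). Srgap3 gave 1.62, 1.02 and -1.14 at its 3 probes. The accession that the array names is the same for both probes of each tested pair, so these are not splice forms told apart by the annotation of the array.

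**Figure D4:**
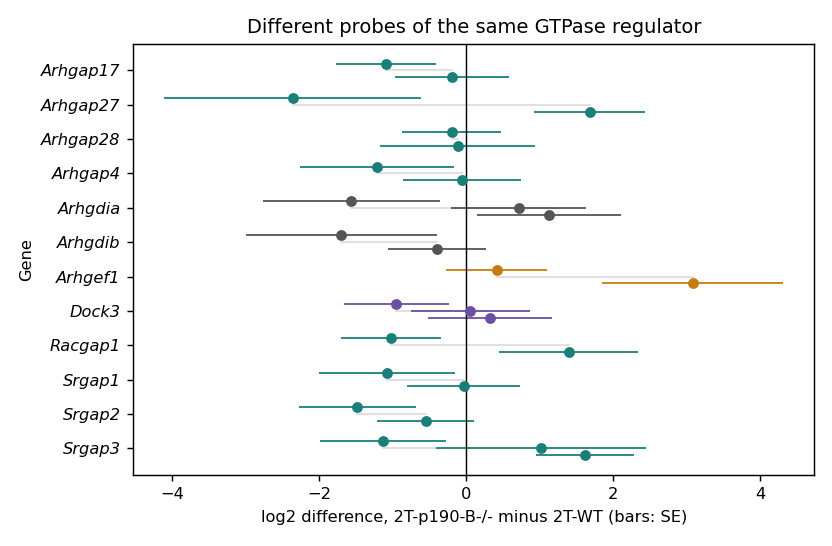
For the 12 genes (y axis) with several tested probes, each point is the log2 difference of 1 probe, 2T-p190-B-/- minus 2T-WT, with its SE. Points of Arhgap27, Arhgdia, Dock3, Racgap1 and Srgap3 lie on both sides of 0.

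The probe sequences differed along with the signal. All 116 probes have 60 bases. Probes above background on no array had a median of 35% G and C bases, and those above it on all 6 had 46.7%, against 35% and 45% over all probes. Across the 116 probes the share of G and C bases and the mean log2 signal had a correlation of 0.56, and across 39411 probes 0.44. The points share the same arrays and amplified cDNA. With the log2 difference between the groups the correlation over the 69 tested probes was 0.09. The brightest GTPase regulator probes also held repeats. Each probe was searched on both strands for the letters TGTGTGTG, for CAGCAGCAG, and for AGTGCTG followed after any 2 bases by ATTAAA, the last a stretch of the B1 short interspersed elements of the mouse genome. Of the 116 probes, 6 (5.17%) held 1 of them, against 1.33% of all probes. Of the 7 GTPase regulator probes with a mean log2 signal over 5, 5 did, in Arhgef15, Arhgap26, Arhgap17, Srgap2 and Arhgef7. The sixth probe was of Arhgef33. The letters were searched for after the data were seen, so these shares describe the probes and were not tested.

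The windows below are 30 bases of probes of 3 of these genes with the matched repeat in capitals, each followed by the first 30 bases of the other probe of the same gene. They are shown because the paired readings differ so much.
Arhgef15, signal on all 6 arrays: gctgaatgtggTGTGTGTGTGTGTGTGTGT
Arhgef15, at background on all 6 arrays: ttgtccggcattcatgtagacgcatactaa
Arhgap17, signal on all 6 arrays: gcaacaaCAGCAGCAGCAGCAGaccccagg
Arhgap17, signal on 5 arrays: cttcagacttgctgcagaatcattttgtat
Srgap2, signal on all 6 arrays: cctcctgAGTGCTGAAATTAAAagcatgca
Srgap2, signal on 4 arrays: ccaagtttgactacgtaggccggacagccc

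The repeat-bearing probes lie at chr11:68757516-68757575 (Arhgef15), chr7:130430339-130430398 (Arhgap17) and chr1:133181856-133181915 (Srgap2), all on the minus strand. No mm9 annotation was used here to place them in an exon, intron or UTR. The Arhgef15 probe, for a factor known from endothelial cells and neurons, read 10.34, 9.40 and 11.41 in 2T-WT and 8.77, 8.79 and 9.50 in 2T-p190-B-/-. Its groups overlapped by a small margin, with a difference of -1.36 ± 0.77 (limma adjusted p = 0.638) that was 0.036 with quantile normalization and -0.34 with normexp. The Srgap2 probe read 7.94, 6.98 and 9.23 in 2T-WT and 6.10, 6.68 and 6.92 in 2T-p190-B-/-, without overlap, a difference of -1.48 ± 0.80, which was -0.21 with quantile normalization and -0.41 with normexp. Its companion gave -0.55 ± 0.66. The Arhgap17 probe, for a Cdc42-directed GAP of epithelial junctions, read 10.30, 9.35 and 10.52 in 2T-WT and 8.90, 8.83 and 9.17 in 2T-p190-B-/-. Its groups did not overlap, with a difference of -1.09 ± 0.68; its companion gave -0.19 ± 0.77. Arhgap26, or GRAF, read 10.31, 9.19 and 12.0 in 2T-WT and 8.72, 8.47 and 9.43 in 2T-p190-B-/- at its TG-repeat probe, a difference of -1.63 ± 0.87, which was -0.20 with quantile normalization and -0.59 with normexp. Its 2 other probes were at background on all arrays. Arhgef7, or β-PIX, had -0.93 ± 0.83 at its TG-repeat probe and another probe at background on all arrays.

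Probes of other genes with these repeats also had lower medians in 2T-p190-B-/-, but the order of the arrays was not the same for each repeat. The 433 TG-repeat probes outside the GTPase regulators had median log2 signals of 6.30, 5.41 and 7.58 in 2T-WT, with 4.79, 5.0 and 5.65 in 2T-p190-B-/-. All medians of 2T-WT were above those of 2T-p190-B-/- except that 2T-WT replicate 2 was below 2T-p190-B-/- replicate 3. Over all probes, 91.1% of TG-repeat probes were above background on all 6 arrays against 34.2% of the others, and the 422 tested had a median difference of -1.34. Outside the GTPase regulators the CAG-repeat probes had medians of 3.02, 3.49 and 2.94 in 2T-WT and 2.66, 2.43 and 2.75 in 2T-p190-B-/-, with 2T-WT replicate 2 highest where it was lowest of 2T-WT for the TG repeat. The 73 tested CAG-repeat probes had a median difference of -1.01, and the 15 with the B1 stretch, 1 of them that of Srgap2, had -1.23. All 2T-p190-B-/- arrays were lower without overlap in 81 of the 422 TG-repeat probes (19.2%), 35 of the 73 CAG-repeat probes (47.9%) and 2 of the 15 B1 probes (13.3%), against 11.7% of all probes. Of the 8 GTPase regulators with lower means and the smallest p, Srgap2, Arhgap26 and Arhgef15 were represented by such a probe. Without the 6 repeat-bearing probes, 8 of 63 GTPase regulator probes had groups that did not overlap, beside 16.3% of all probes with repeats kept. The part of the repeats in these differences was not tested.

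**Figure D5:**
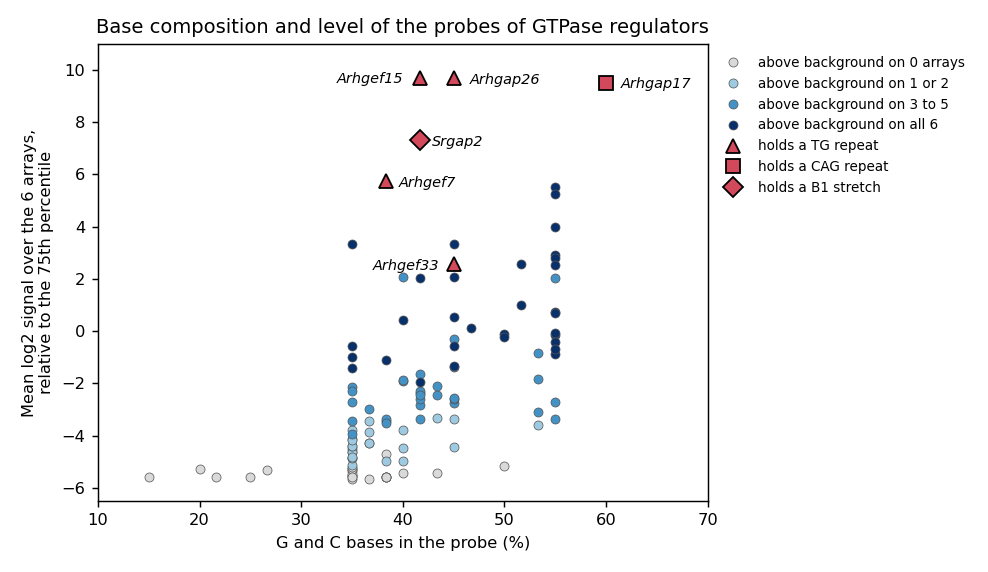
Each point is 1 of the 116 GTPase regulator probes, by its share of G and C bases (x axis, percent) and its mean log2 signal over the 6 arrays (y axis, relative to the 75th percentile); shades give the number of arrays above background and red symbols the 6 probes that held a searched repeat. The red symbols include 5 of the 7 probes above a mean of 5, and pale points sit at the low end of the G and C share, with a median of 35%.

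The GTPases themselves, taken from a list of 21 genes, had 16 with a tested probe. In 6 of them the groups did not overlap, and all 6 were lower in 2T-p190-B-/- (11.7% of all probes). Their median difference was -0.73. The atypical Rhof, linked to filopodia, read 5.63, 4.47 and 4.58 in 2T-WT and 3.58, 2.93 and 3.25 in 2T-p190-B-/-, a difference of -1.64 ± 0.69 (limma unadjusted p = 0.0446, adjusted p = 0.638). Rac2, the Rac of blood cells, read 0.38, 0.17 and 1.81 in 2T-WT and -0.37, -0.36 and 0.07 in 2T-p190-B-/- (-1.01 ± 0.73). Rac1 gave -1.54 ± 0.77 at its tested probe, and its other probe, not tested, was above background only on 2T-p190-B-/- replicates 1 and 2. Rhoh, Rhobtb1 and Rnd3 were the other 3, at -1.46, -1.19 and -1.72. Both probes of Rhoa, a main substrate of p190-B, were at background on all 6 arrays. Of 36 effectors, 28 were tested, with a median of -0.27 and 5 without overlap, all lower. They were Baiap2, Cdc42ep1 and Pak1, which act downstream of Rac or Cdc42, and Rock2 and Limk2, which carry the RhoA signal to myosin and cofilin. The other tested probe of Baiap2, above background on all 6 arrays, gave 0.12 ± 0.91 with overlapping groups. None of these genes passed the adjusted threshold in limma, where the smallest unadjusted p of an effector was 0.0615.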

How the data were processed

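RNA of LSK-SLAM cells from 3 2T-WT and 3 2T-p190-B-/- recipients was hybridised to whole mouse arrays of Agilent. Groups and replicate numbers follow the sample titles. What the authors deposited is 1 Agilent Feature Extraction 10.5.1.1 table per array, in which each spot has an intensity on a linear scale: a mean signal, a local background and a processed signal corrected for background and spatial trend, not scaled between arrays. They also deposited 1 processed value per spot, the same signal divided by a number for each array near its median. Control and outlier spots were left out, and 0 spots were saturated. For the analysis, each processed signal was divided by the 75th percentile of its array, log2-transformed and averaged over the spots of a probe.

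Limma 3.58.1 (lmFit and eBayes, R 4.3.3) was fitted without covariates to probes well above background on at least 3 arrays with 2 or more values per group, with Benjamini-Hochberg adjustment over all of them. SD and SE are on the log2 scale, n = 3 per group unless a spot is said to be left out. P-values measure the spread between these samples only. The genes and lists were chosen with earlier results of these data known. The named genes are Arhgap5, Grlf1, the RhoGDIs, Vav1, Dock2, Dock8, Arhgef6, Arhgap15, Ect2, Racgap1 and the 8 genes in each direction with the smallest p; 1 gene that this rule takes is not reported here, and others were named after their values were seen. In lists a gene is represented by its brightest tested probe. A bound is the mean of the detected group against the lowest signal well above background or the probe's own, whichever is higher. Arrays of the detected group that were at background enter that mean, and where they do the bound is not a strict limit. Alternatives were quantile normalization, the authors' processed value, normexp with an offset of 50, no filter, a filter on all 6 arrays being above background, the slide or replicate number as a block, 1 slide alone, a variance trend, the methods' t-test and each array left out; repeats were left out after seeing the data. The fit was tested on simulated arrays, with independent noise drawn for each probe at its observed SD within the groups. These had no shifts between arrays, slides or groups, and only the probes counted here, among 24873, were changed. The real arrays can differ in these respects. At an unadjusted p under 0.05 the fit found 40 of 67 probes given a log2 change of 2 and 62 of 67 given a change of 4. At an adjusted p under 0.05 it found 0 of 67 for both, and 9 of 66 given a change of 6. The number of arrays limits the precision.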

Additional observations from a re-analysis of the deposited data

How the results depend on the processing

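No GTPase regulator probe had an adjusted limma p under 0.05 under any alternative. The 4 probes higher at an unadjusted p under 0.05 became 2 by the methods' t-test (2.44% of all probes) and 1 with the replicate block (3.30%). With 1 array left out they were 0 to 3, beside 2.70% to 4.08% of all probes. The 3 lower became 6 with normexp background correction, where the share of all probes rose from 3.39% to 11.9%. They became 5 without the filter on dim probes (3.41% of all probes) and 1 where a probe had to pass background on all 6 arrays (5.09%). With 1 array left out they were 1 to 4, beside 1.32% to 5.64% of all probes. The count higher was 3 without 2T-p190-B-/- replicate 3, 0 without 2T-p190-B-/- replicate 1, 1 without 2T-WT replicate 3, and 2 without 2T-WT replicate 1, 2T-WT replicate 2 or 2T-p190-B-/- replicate 2; the count lower was 1 without 2T-p190-B-/- replicate 1 or 2. The 10 probes without overlap became 16 of 69 with normexp (23.2%, beside 23.7% of all probes), 17 of 116 without the filter (14.7% beside 15.1%), 6 of 37 where a probe had to pass background on all 6 arrays (16.2% beside 17.3%), 8 without the repeat-bearing probes and 32 of 67 on the slide with both groups, where 2 arrays face 2 and 46.1% of all probes did not overlap. With 1 array left out they were 12 to 25, or 17.4% to 36.2%, beside 23.4% to 32.8% of all probes. Groups with fewer arrays overlap less often by construction. Many of the named probes were chosen by a small p in these same data, which favours a stable sign. The filters, the variance trend and the methods' t-test leave a probe's difference as it is, so its sign could not change there. The same holds for the replicate block where a probe has values on all 6 arrays. Over 21 named probes and 16 alternatives, 321 of 327 values kept their sign. The others were Arhgef15 at 0.036 with quantile normalization, Chn2 at -0.61, Arhgdib at 0.40 and Vav1 at -0.12 with normexp, and Arhgef18 at -0.14 with the slide as a block and on the slide with both groups; the cause was not tested.

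The replicate numbers gave no clear sign of pairing. Deviations from the group means correlated by 0.01, 0.02 and 0.09 over 24873 probes for equal numbers and by -0.08 to 0.07 for others. With 3 arrays per group these values depend on each other and cannot exclude that samples were sorted or processed in pairs. With the replicate block 1 probe was higher and 3 lower at an unadjusted p under 0.05, 0 had an adjusted p under 0.05, and 10 did not overlap. Simulated log2 changes of 2 and 4 were found at an adjusted p under 0.05 for 0 of 67 probes each, so the count of 0 says little about changes of that size, and probes at background give bounds only.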
